A study of Mus musculus with 12 samples.

Results

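The genes described here are 8 components of the spliceosome that are linked to inherited retinitis pigmentosa in people, taken by name from a table of 56748 mouse genes: Prpf3, Prpf4, Prpf6, Prpf8, Prpf31, Snrnp200, Rp9 and Dhx38. All 8 were found, each in a single row, and all 8 passed the filter on low values in every comparison. RNA was sequenced from mouse rod photoreceptors and from whole retina of 2 genotypes, in 4 groups of 3 libraries. Rod RNA was the ribosome-bound fraction pulled down through a tagged ribosomal protein (RiboTag, homozygous in all animals), and retina RNA was the input before the pulldown. The Cre recombinase that activates the tag, and deletes floxed Pkm2, was driven by a promoter active in rods (i75Cre) and was carried by both genotypes. Control mice had 1 floxed Pkm2 allele, so that they are Pkm2 Rodhet animals designated as wild type, and Pkm2 Rodko mice had 2. The control is therefore not an unmodified retina. Eyes were taken after perfusion with cycloheximide, and the age of the animals differs between the sources used here (2 weeks in the series' design text, 2 months in the methods).

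The spliceosome removes introns from pre-mRNA and is built from small nuclear ribonucleoproteins (snRNPs). The U4/U6 and U5 snRNPs join as a tri-snRNP, and unwinding of the U4/U6 RNA pair then lets U6 enter the catalytic centre. Mutations in several tri-snRNP proteins cause retinitis pigmentosa, in which rods die first although every cell needs the same proteins. Within this machinery Prpf3, Prpf4 and Prpf31 are U4/U6 proteins, Prpf6 bridges U4/U6 and U5, Prpf8 is the large U5 protein at the catalytic centre, and Snrnp200 is the helicase that unwinds U4/U6. Dhx38 is the ATPase that remodels the spliceosome after the first catalytic step, and Rp9 encodes a nuclear protein that binds PRPF3.

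Libraries held 13458890 to 22790074 reads assigned to genes. Pkm carries the floxed Pkm2 exon. It was at 3690, 3606 and 3895 CPM (reads per 1000000, scaled as described below) in control rods. In Pkm2 Rodko rods it was at 1689, 1583 and 1565 CPM, so the genotype labels and the target gene went together. All 13 rod markers tested were higher in control rods than in control retina, with a median log2 ratio of 1.91. Of the 10 bipolar markers 8 were lower in rods and 1 was higher, and all 8 Müller, 7 amacrine, 8 ganglion and 8 cone markers were lower. All CPM here and below are after trimmed-mean (TMM) scaling of all 12 libraries together, because the deposited values were scaled within each fraction.

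The 3 U4/U6 proteins were all at a higher level in rods than in retina on this scale. Prpf3 was at 46.8, 39.7 and 43.5 CPM in control rods and at 26.2, 25.0 and 22.9 CPM in control retina. In Pkm2 Rodko mice Prpf3 was at 47.3, 44.5 and 55.6 CPM in rods and at 25.8, 26.2 and 27.8 CPM in retina. The rod libraries lay above the retina libraries in both genotypes, with a log2 ratio of 0.81 ± 0.10 (SE) in controls and 0.88 in Pkm2 Rodko mice (limma, adjusted p = 4.63e-06 and 1.69e-06). Prpf4 showed a smaller gap. It was at 35.01, 40.8 and 37.5 CPM in control rods and 24.5, 27.3 and 24.0 CPM in control retina, and at 38.3, 36.6 and 42.2 CPM against 24.2, 25.6 and 25.9 CPM in Pkm2 Rodko mice. The groups did not overlap, and the log2 ratios were 0.58 ± 0.09 and 0.63 (limma, adjusted p = 6.83e-05 and 2.84e-05). Prpf31, whose product binds the U4 stem loop, was at 78.8, 71.4 and 77.9 CPM in control rods and 35.6, 36.0 and 35.3 CPM in control retina. In Pkm2 Rodko mice it was at 79.6, 84.3 and 75.6 CPM in rods and 36.5, 33.7 and 35.4 CPM in retina. Its level in rods was 2.13 times that in retina in controls and 2.27 times in Pkm2 Rodko mice (log2 ratios 1.09 ± 0.08 and 1.18; limma, adjusted p = 7.59e-09 and 2.69e-09). By annotation, 984 exonic bases of Prpf31, or 18.1% of them, lie opposite the antisense gene Gm15927, which had a mean of 11.1 reads, and whether strand was used in counting is not given in the sources used here.

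Prpf6, the bridge between U4/U6 and U5, was at 94.2, 79.2 and 81.4 CPM in control rods and at 48.2, 48.5 and 49.6 CPM in control retina. In Pkm2 Rodko mice the values were 73.7, 87.6 and 97.1 CPM in rods and 45.0, 47.6 and 49.6 CPM in retina. Retina libraries differed little among themselves (SD 0.730 CPM in controls) while rod libraries spread more (SD 8.12 CPM), and the 2 fractions did not overlap. The log2 ratio was 0.80 ± 0.10 in controls and 0.85 in Pkm2 Rodko mice (limma, adjusted p = 4.44e-06 and 1.91e-06).

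The U5 proteins had the highest levels. Prpf8 was at 431.5, 467.8 and 400.3 CPM in control rods and 266.4, 334.5 and 271.8 CPM in control retina, and at 423.4, 386.6 and 582.0 CPM against 289.3, 270.9 and 311.1 CPM in Pkm2 Rodko mice. Snrnp200 was at 280.4, 283.8 and 258.0 CPM in control rods and 149.3, 187.4 and 145.5 CPM in control retina, and at 268.8, 266.2 and 366.2 CPM against 157.0, 150.3 and 164.9 CPM in Pkm2 Rodko mice. For both genes the highest rod library was the third of Pkm2 Rodko and the highest retina library was the second control. Rods stayed above retina in both genotypes, by log2 ratios of 0.58 ± 0.13 and 0.66 for Prpf8 (limma, adjusted p = 0.00113 and 0.000387) and of 0.78 ± 0.12 and 0.92 for Snrnp200 (limma, adjusted p = 3.30e-05 and 5.43e-06).

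In controls Dhx38 and Rp9 lay at the ends of the range of ratios. Dhx38 was at 96.2, 87.3 and 96.7 CPM in control rods and 37.1, 45.0 and 40.4 CPM in control retina, and at 88.7, 98.1 and 101.4 CPM against 44.3, 42.4 and 43.0 CPM in Pkm2 Rodko mice. Its log2 ratios were 1.19 ± 0.09 and 1.15 (limma, adjusted p = 1.08e-08 and 1.41e-08), and in controls its fold of 2.29 was the highest among the 8 genes, while in Pkm2 Rodko mice its fold of 2.22 was second to that of Prpf31. Rp9 was at 10.1, 9.3 and 13.7 CPM in control rods and 11.9, 10.1 and 10.8 CPM in control retina, and at 12.8, 10.5 and 11.2 CPM against 11.8, 10.2 and 8.8 CPM in Pkm2 Rodko mice. Rod and retina libraries of Rp9 overlapped in both genotypes. Its log2 ratio was -0.0075 in controls, with a 95% interval from -0.35 to 0.34, and 0.16 in Pkm2 Rodko mice, with an interval from -0.18 to 0.51 (limma, adjusted p = 0.977 and 0.401). Rp9 rested on 111 to 269 reads per library, the fewest of the 8, and 237 of its exonic bases lie opposite the antisense gene 9530077C05Rik, which had a mean of 189.4 reads.

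**Figure D1:**
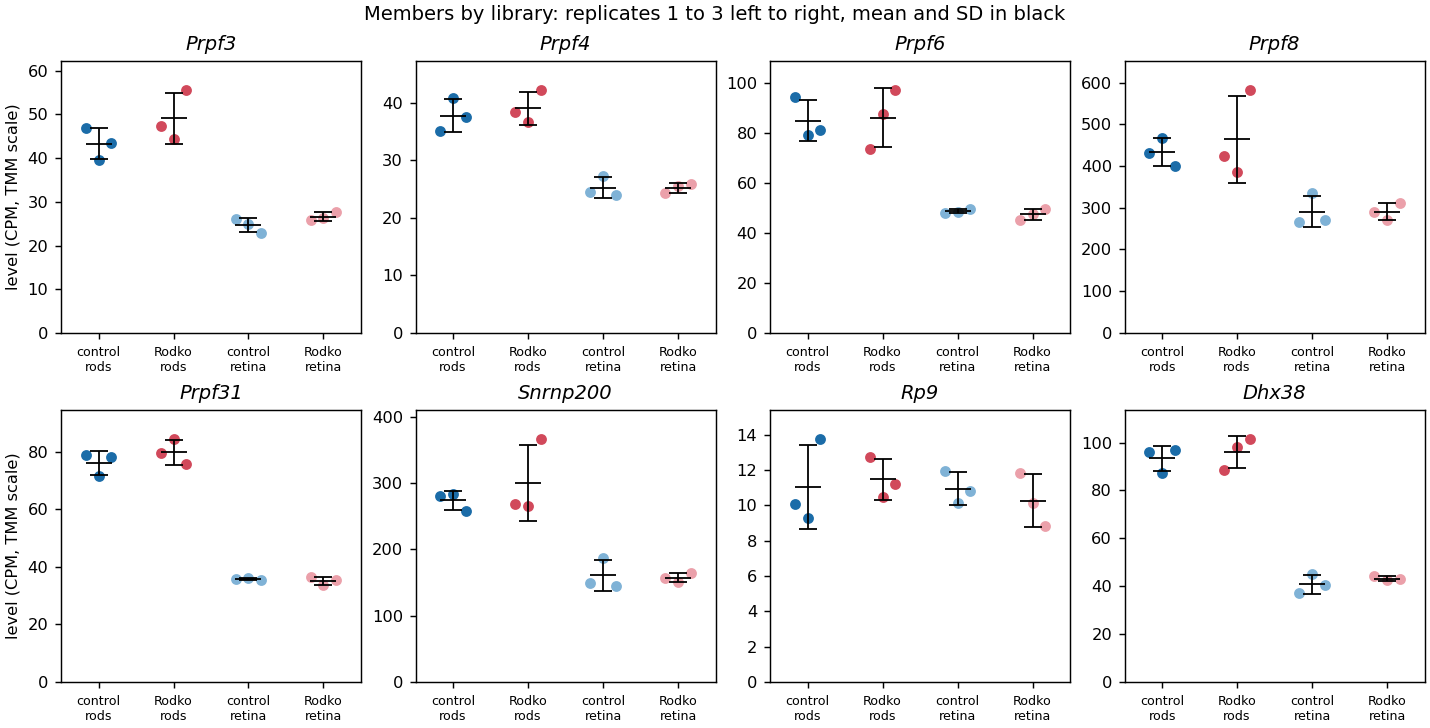
Level of each member in each library, in CPM on the TMM scale on axes that start at 0, with the mean and SD of each group of 3 in black. Rod libraries lie above retina libraries for every member except Rp9, and the third Pkm2 Rodko rod library is the highest point for Prpf8 (582.0 CPM) and Snrnp200 (366.2 CPM).

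In each genotype 7 of the 8 genes were called higher in rods than in retina and none was called lower, and the 7 were those whose rod libraries all lay above the retina libraries. Over all 25458 genes tested, 23.6% were called higher and 35.7% lower in controls, and 24% higher and 35.3% lower in Pkm2 Rodko mice. Rod libraries lay wholly above retina libraries for 25.3% of all genes in controls and for 26.4% in Pkm2 Rodko mice. The median gene had a log2 ratio of -0.36 and -0.31, against a median of the members of 0.79 and 0.86. A gene was tested if its mean reached 1 in any group, so these shares and medians include genes with few reads in rods. Within rods alone 20658 genes passed that filter, and 13833 had at least 10 mean reads in every group. Shares and medians over such better-measured genes are not given here. The members lay from 0.36 to 1.56 above the all-gene median in controls and from 0.48 to 1.49 above it in Pkm2 Rodko mice, with Rp9 lowest in each. The sign of a ratio between fractions depends on the scaling: with total reads as the only scaling, 4 of 8 were called higher and 1 lower in controls, and on the deposited values 2 were called higher and 1 lower, with Rp9 the lower gene and with Prpf4 and Prpf8 both at a log2 ratio of -0.016. These scalings moved the all-gene median to -0.76 and -0.80. A scaling shifts all genes nearly alike, so that the place of the members relative to the median depends on it less than the ratio itself. The 7 genes other than Rp9 were at least 0.76 above the median in both genotypes under each of the 4 scalings. In controls the lowest of these 7 was 0.94 above it on the TMM scale and 0.78 on the deposited values. Rp9 was 0.36 and 0.20 above it. The rod libraries are ribosome-bound RNA enriched for rods, and the retina libraries are input RNA of all cell types. Markers of other cell types were still read in the pulldown. Summed cone markers were at 536 to 647 CPM in control rods and 902 to 958 CPM in control retina. Summed Müller markers were at 490 to 634 CPM and 3826 to 4216 CPM. Cell type and ribosome loading cannot be told apart here, nor can fewer cells of a type from less RNA per cell.

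**Figure D2:**
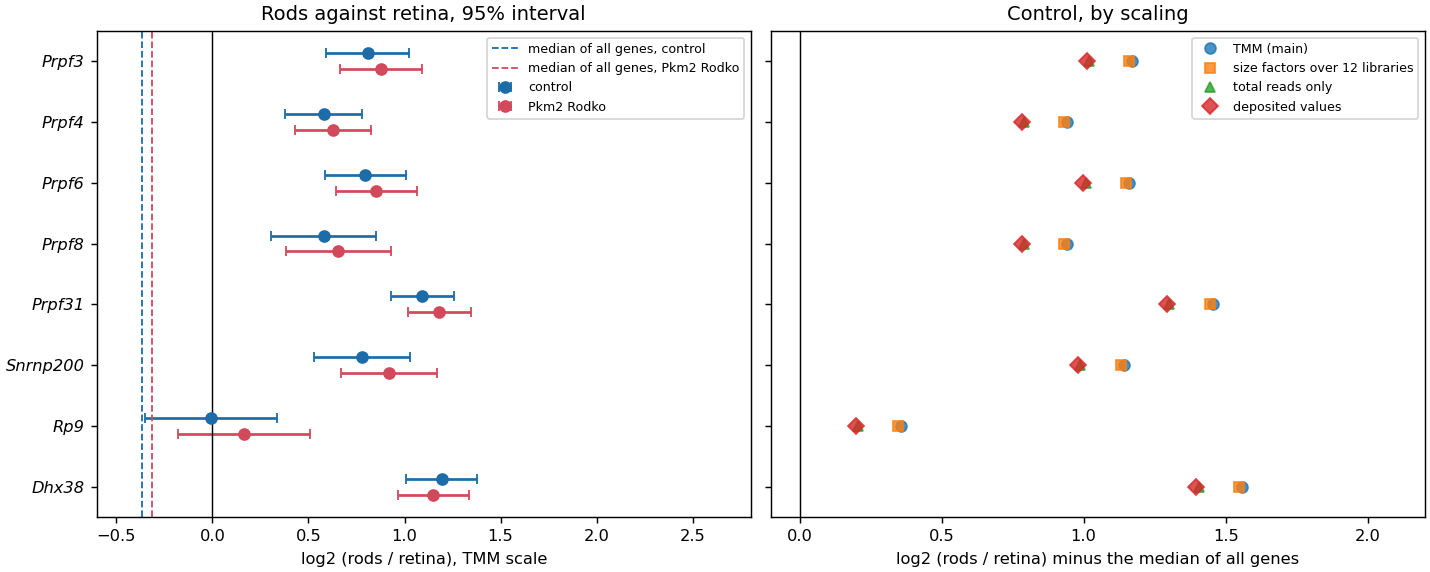
Left, log2 ratio of rods to retina on the TMM scale with its 95% interval for each member in control and Pkm2 Rodko mice, with dashed lines at the median of all genes (-0.36 and -0.31). Right, the same ratio in controls minus the all-gene median under 4 scalings, where all members are above 0 and Rp9 is lowest under each.

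The ratio of 2 genes within a library needs no scaling between fractions. For 12 of the 28 pairs of members the 6 rod and 6 retina libraries did not overlap in this ratio, and among all pairs of 13833 genes with at least 10 mean reads in every group the share was 60.8%, above the share among the members; the pairs share genes and libraries. Of the 12 pairs 9 involved Rp9 or Dhx38. There were 7.22 Prpf31 reads per Rp9 read in the median rod library (5.67 to 8.06) and 3.29 in the median retina library (2.98 to 4.01). Against Dhx38 the direction was the reverse, with 4.63 Prpf8 reads per Dhx38 read in rods (3.94 to 5.74) and 6.95 in retina (6.39 to 7.43). In the pairs that did not overlap, Rp9 reads were relatively fewer and Dhx38 reads relatively more numerous in rods. The pair Prpf8 and Snrnp200, which sit side by side in U5, also separated: 1.56 Prpf8 reads per Snrnp200 read in rods (1.45 to 1.65) and 1.82 in retina (1.78 to 1.89). So did Prpf4 against Prpf31, at 0.481 in rods (0.435 to 0.571) and 0.709 in retina (0.664 to 0.759). Prpf4 against Snrnp200 barely separated, at 0.140 in rods (0.115 to 0.1454) and 0.160 in retina (0.1457 to 0.170). The remaining 16 pairs overlapped. Prpf31 per Dhx38 was 0.818 in rods (0.745 to 0.898) and 0.823 in retina (0.795 to 0.959), and Prpf3 per Snrnp200 was 0.167 in rods (0.140 to 0.176) and 0.166 in retina (0.133 to 0.175).

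Per kilobase of exon, the order of levels in control rods was Prpf8 (58.1 CPM per kilobase), Snrnp200 (35.1), Prpf6 (22.0), Dhx38 (18.8), Prpf31 (13.98), Prpf3 (7.65), Prpf4 (6.66) and Rp9 (3.09). Neighbours in this order did not overlap between libraries apart from Prpf3 and Prpf4. In control retina the order was Prpf8 (39.0 CPM per kilobase), Snrnp200 (20.6), Prpf6 (12.6), Dhx38 (8.23), Prpf31 (6.55), Prpf4 (4.45), Prpf3 (4.36) and Rp9 (3.07), and again only Prpf3 and Prpf4 overlapped with a neighbour. In Pkm2 Rodko rods the overlapping neighbours were Prpf6 and Dhx38. The lower ranks depend on the length used. With the longest principal transcript in place of all exons, the length of Rp9 fell from 3570 to 1134 bases and Rp9 ranked above Prpf4 in all 4 groups, while the order of Prpf8, Snrnp200 and Prpf6 at the top was kept in each.

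The sequence in front of the transcription starts of the members was read from RefSeq (GRCm38.p6). In it 6 of the 8 genes had an entry, and Rp9 and Dhx38 had none. By GENCODE annotation, for 4 of the 6 a gene on the opposite strand begins within the 250 bases before the start: Tfpt before Prpf31, Cdc26 before Prpf4, 1810024B03Rik before Snrnp200 and Gm26594 before Prpf3. The stretch between the divergent first exons is given below for these 4 genes. Prpf8, which has no such neighbour in its window, is shown with the full 250 bases. Each sequence runs 5′ to 3′ on the gene's own strand (minus for Prpf3, plus for the others) and ends at the base before the start, and capitals mark motifs.
Prpf31, chr7:3629930-3629984: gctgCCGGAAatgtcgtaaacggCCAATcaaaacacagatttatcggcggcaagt
Prpf4, chr4:62408643-62408782: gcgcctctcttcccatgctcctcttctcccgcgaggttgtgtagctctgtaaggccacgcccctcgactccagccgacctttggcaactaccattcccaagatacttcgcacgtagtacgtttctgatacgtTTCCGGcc
Prpf3, chr3:95855886-95855965: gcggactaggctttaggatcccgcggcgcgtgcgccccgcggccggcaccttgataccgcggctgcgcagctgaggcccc
Snrnp200, chr2:127208281-127208385: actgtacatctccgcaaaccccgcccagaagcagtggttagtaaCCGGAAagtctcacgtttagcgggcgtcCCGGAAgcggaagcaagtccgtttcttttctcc
Prpf8, chr11:75486527-75486776: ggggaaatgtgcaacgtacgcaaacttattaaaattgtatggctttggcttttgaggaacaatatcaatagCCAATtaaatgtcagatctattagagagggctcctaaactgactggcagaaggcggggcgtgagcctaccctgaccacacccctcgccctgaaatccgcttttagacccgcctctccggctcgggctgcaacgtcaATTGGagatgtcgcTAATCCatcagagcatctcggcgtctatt
Both strands were searched for CCGGAA (the core bound by ETS-family factors), CCAAT (the CCAAT box), TAATCC (a core bound by photoreceptor homeobox factors such as CRX), TATAAA (the TATA box) and CACGTG (the E-box), and none of these overlaps another in the sequences shown. The 6 genes have 7 listed starts, of which Prpf3 has 2. The ETS core lay within 250 bases of 5 of the 7 starts and in 12.03% of all 32851 windows of that length. It was absent before Prpf8 and before the first start of Prpf3, whose stretch is shown. Prpf8 alone held TAATCC, found in 6.25% of all windows, and it shared CCAAT with Prpf31 (33.8% of all windows). The E-box was found at the second start of Prpf3 only (6.02% of all windows) and TATAAA for none of the 6 (12.4% of all windows). A match describes letters in the reference and is not a measured binding site. The motifs were not compared with those of other genes higher in rods, and their relation to the ratios was not tested.

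The divergent neighbours were measured in the same libraries. Tfpt, with a mean of 289.6 reads, was higher in rods by a log2 ratio of 0.87 ± 0.12 in controls and 0.97 in Pkm2 Rodko mice (limma, adjusted p = 1.22e-05 and 3.30e-06), beside 1.09 and 1.18 for Prpf31. Cdc26, with a mean of 528.3 reads, had log2 ratios of 0.28 ± 0.11 and 0.31 (limma, adjusted p = 0.0384 and 0.0227), beside 0.58 and 0.63 for Prpf4. Both neighbours thus had smaller ratios than the member they face, and that difference was not tested. The neighbours of Snrnp200 and Prpf3 had means of only 19.5 and 10.3 reads. Gm26594, before Prpf3, was called lower in control rods at -2.35 ± 0.61 (limma, adjusted p = 0.00376), opposite in sign to Prpf3. In Pkm2 Rodko mice it was at -0.53 and was not called (limma, adjusted p = 0.474). The neighbour of Snrnp200 was at 0.01 and -0.23 and was called in neither genotype. With so few reads these ratios were not compared with those of the members.

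The comparison of Pkm2 Rodko with control asked whether loss of Pkm2 in rods went with a change in these genes. None of the 8 was called in rods (0.0194% of 20658 genes were called) and none in retina (0.00391% of 25590), and none had an unadjusted p under 0.05 in limma in either fraction (4.77% of all genes in rods and 4.18% in retina). By edgeR and by DESeq2 none of the 8 was called either. In rods the log2 difference ran from 0.02 for Prpf6 to 0.19 for Prpf3. The narrowest 95% interval was that of Prpf31, from -0.12 to 0.28, and the widest that of Rp9, from -0.29 to 0.46. Prpf3 differed by 0.19 ± 0.11 (95% interval -0.06 to 0.43; limma, adjusted p = 0.932), and its control and Pkm2 Rodko libraries overlapped, as they did for all 8 genes in both fractions (libraries did not overlap for 9.89% of all genes in rods and 9.29% in retina). All 8 differences in rods were above 0, but without the third Pkm2 Rodko library only 4 of 8 were, and that of Prpf8 went from 0.09 to -0.09. In retina 4 of 8 were above 0, from -0.08 for Rp9 to 0.12 for Prpf3. The genotype difference in rods minus that in retina was not called for any member, with estimates from -0.05 for Dhx38 to 0.17 for Rp9 and no unadjusted p under 0.05 (limma, adjusted p from 0.980 to 0.995), and edgeR and DESeq2 called none. Rp9 lies on the chromosome of Pkm, 37.2 Mb away. All 8 Müller genes were lower in Pkm2 Rodko rods (summed level 490 to 634 CPM in control and 420 to 502 CPM in Pkm2 Rodko). Their sum was also lower in retina, at 3826 to 4216 CPM in control and 3428 to 3728 CPM in Pkm2 Rodko mice. In rods 9 of 10 bipolar genes (366 to 446 and 332 to 425 CPM), all 8 ganglion and 6 of 7 amacrine genes were lower. So were 6 of 8 cone, 4 of 6 pigment epithelium, 5 of 6 microglia, 3 of 5 endothelial and 2 of 4 horizontal genes. None of these markers was called in rods, and their part in the values of the members was not tested.

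**Figure D3:**
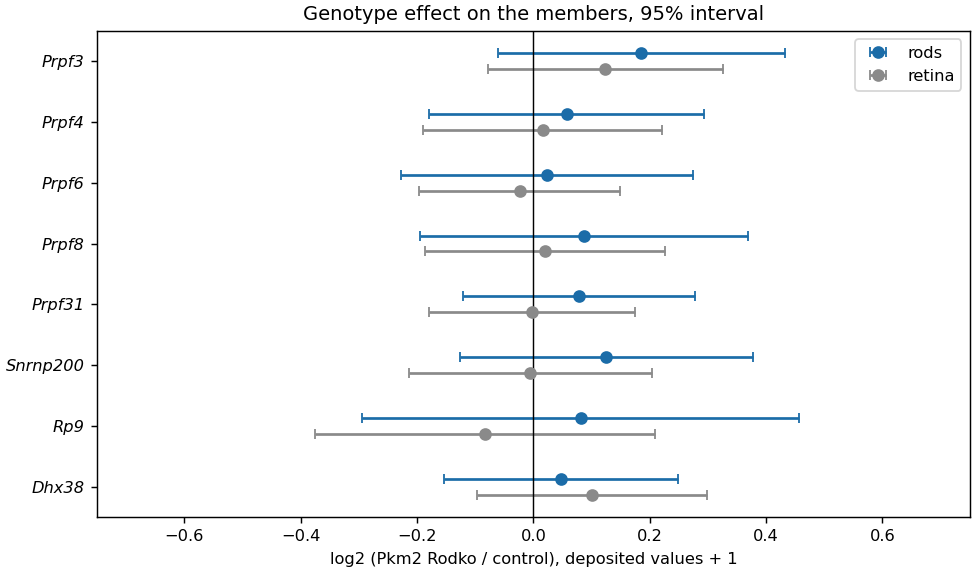
Log2 difference between Pkm2 Rodko and control mice for each member, in rods (blue) and in retina (grey), with 95% intervals from limma on log2 of the deposited value plus 1. Every interval includes 0, and the widest in rods is that of Rp9 (-0.29 to 0.46).

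The spread of Prpf8 and Snrnp200 between replicates went together. With group means removed, their levels had a Pearson r of 0.968 over the 12 libraries, whereas Prpf8 and Prpf31 had -0.50, and these points share libraries and depth. In the third Pkm2 Rodko rod library Prpf8 was 0.52 and Snrnp200 0.45 (log2) above the mean of the other 2 libraries of the group, and Prpf3 (0.28), Prpf6 (0.27), Prpf4 (0.17) and Dhx38 (0.12) were also above it, so that 6 of 8 members were raised, with Prpf31 0.12 and Rp9 0.04 below it. In the second control retina library 6 of 8 members were likewise above, Prpf8 by 0.31, Snrnp200 by 0.35 and Dhx38 by 0.22. Prpf8 and Snrnp200 have long exonic sequence (7461 and 7819 bases), and libraries differed along length: in the third Pkm2 Rodko rod library 3169 genes of 7000 bases or more had a median deviation of 0.19 and 2730 genes under 2000 bases one of -0.20. In the first Pkm2 Rodko rod library these medians were -0.15 and 0.21. The Spearman correlation of deviation and length over 13694 genes was 0.43 in the third and -0.39 in the first, and the part of length in the values of the members was not tested. Without the third Pkm2 Rodko rod library the log2 ratio of rods to retina in Pkm2 Rodko mice was 0.48 for Prpf8 and 0.77 for Snrnp200, both still called.

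**Figure D4:**
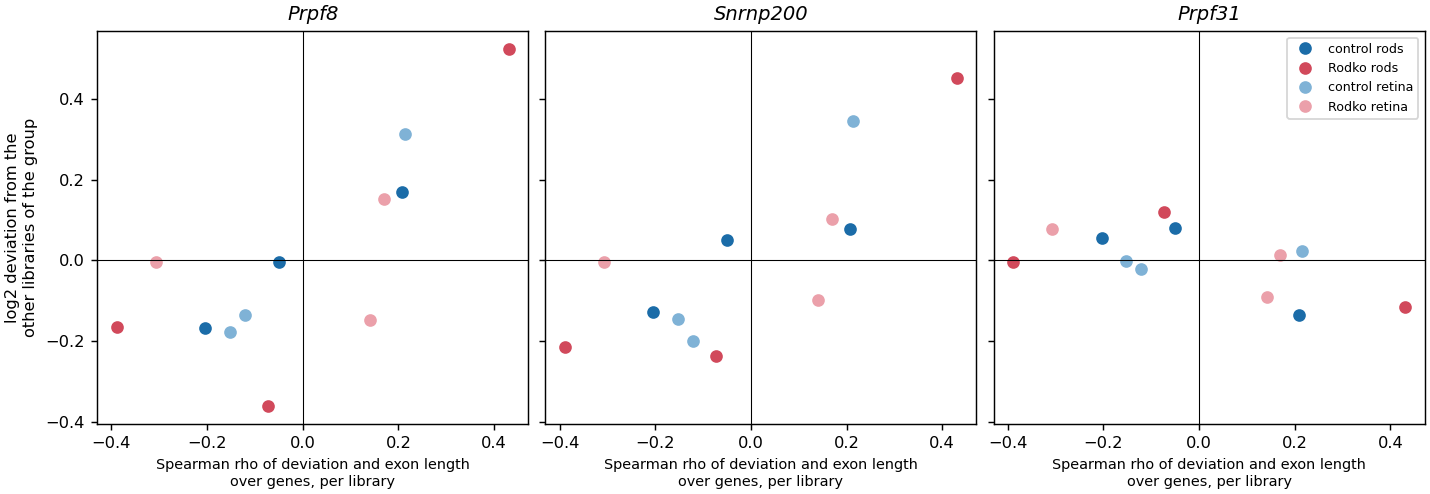
Log2 deviation of Prpf8, Snrnp200 and Prpf31 in each library from the other 2 libraries of its group, against the Spearman correlation over genes between deviation and exonic length in that library. The third Pkm2 Rodko rod library is at the far right (0.43), with Prpf8 at 0.52 and Snrnp200 at 0.45, while Prpf31 is at -0.12.

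The rest of the spliceosome was followed in 75 listed genes, all of which passed the filter. In controls 65 were called higher in rods and 2 lower, and in Pkm2 Rodko mice 65 were higher and 4 lower, with medians of 0.74 and 0.84 that lay close to those of the members. Under total-read scaling 33 were higher and 10 lower in controls, and on the deposited values 31 and 11. All 6 other U4/U6 and tri-snRNP proteins, all 6 other U5 proteins and all 10 other catalytic and remodelling factors were called higher in controls, with medians of 0.74, 0.94 and 0.68. Among the 15 U2 proteins 14 were higher (median 0.85), and among the 12 of the Prp19 complex 11 were (median 0.88). The Sm and LSm ring proteins had medians of 0.71 and 0.64, with 6 of 7 higher in each. The proteins of the minor spliceosome, which removes the rare U12-type introns, had a lower median of -0.07 in controls, with 3 of 7 higher and 1 lower. Of these 7 genes 6 still lay above the all-gene median of -0.36. In Pkm2 Rodko mice their median was 0.34, with 3 higher and 3 lower. The 5 U1 proteins had a median of 0.53 in controls, with 3 higher and 1 lower.

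The highest ratio among the listed genes in controls was that of Sf3b5, a small subunit of the SF3b complex of U2, at 1.59 ± 0.21, and it was 0.86 in Pkm2 Rodko mice. Snrpb, which encodes the SmB protein, was at 242.6, 225.0 and 275.8 CPM in control rods and 95.9, 93.1 and 100.6 CPM in control retina, a log2 ratio of 1.36 ± 0.09. Sf3a2, of the SF3a complex of U2, followed at 1.35 ± 0.09. At the other end Snrnp70, the U1 protein that binds the U1 RNA stem, was at 28.5, 32.3 and 31.3 CPM in control rods and 125.6, 134.1 and 149.5 CPM in control retina. Its log2 ratio was -2.15 ± 0.13 (limma, adjusted p = 1.18e-09) and -2.35 in Pkm2 Rodko mice, opposite in sign to the 7 members called higher. Rnpc3, a protein of the minor U11/U12 snRNP, was at -1.77 ± 0.18 (limma, adjusted p = 6.04e-07), and Snrpb2, of U2, was at -0.32 ± 0.14 and was not called (limma, adjusted p = 0.0629). None of the 75 was called between genotypes by limma in rods or retina, with 1 and 2 at an unadjusted p under 0.05, and edgeR and DESeq2 called none.

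Most of the 18 listed retinitis pigmentosa genes that act in the photoreceptor itself had higher ratios of rods to retina than the members. Of these 16 were called higher in control rods, with a median log2 ratio of 1.77, and 14 of 18 exceeded Dhx38, the highest member in controls, while 3 of 18 lay below the median of the members, at log2 ratios of -0.12 to 0.39. Pde6b, a subunit of the rod phosphodiesterase, had a log2 ratio of 1.92 ± 0.11. Rp1, a microtubule protein of the outer segment, was at 0.92 ± 0.19, within the range of the members.

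**Figure D5:**
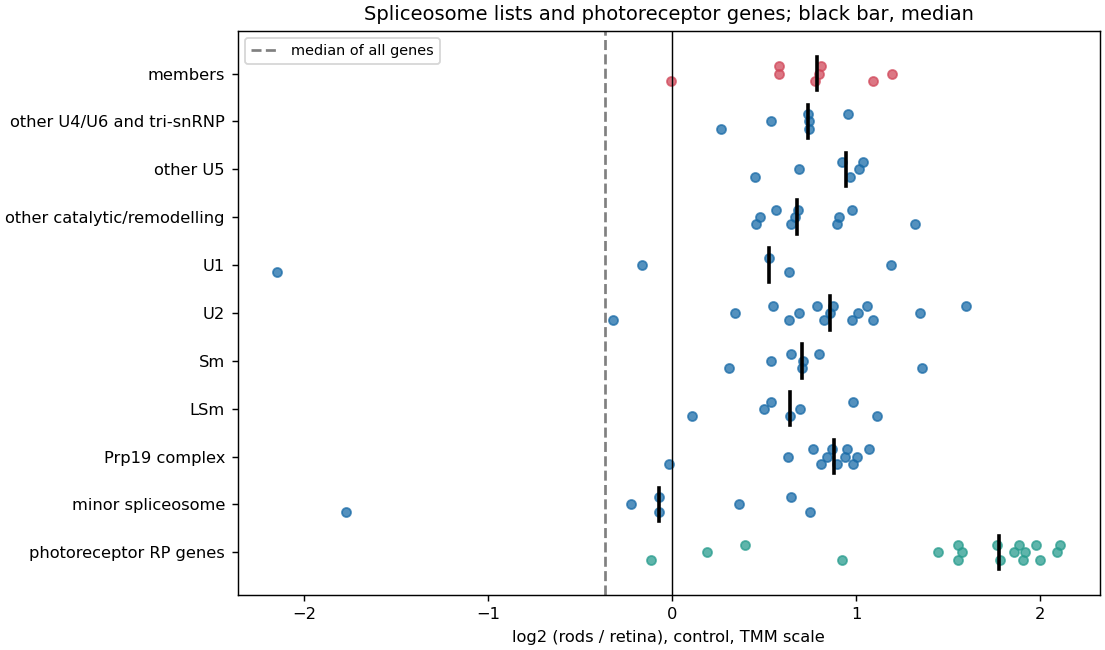
Log2 ratio of rods to retina in controls on the TMM scale for each listed gene, with a black bar at the median of each list and a dashed line at the median of all genes (-0.36). The members (median 0.79) lie among the other lists of the major spliceosome, and 14 of the 18 photoreceptor genes (median 1.77) lie to the right of every member, while 3 lie to the left of the members' median.

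Over the 12 libraries 7 members had a Pearson r of 0.93 to 0.98 with the mean standardised profile of the 8, and Rp9 had 0.30. Each member is itself part of that mean profile, so these values are not a test of likeness among the members. The share of all genes with a comparable r is not given here. Among the 5 genes most like that mean profile of 13825 compared were Atp2c1 (r = 0.996), which encodes a Golgi calcium pump, Ppm1b (0.994) and Ptpn11 (0.992), both phosphatases, and Klhl12 (0.992), an adaptor of a ubiquitin ligase. Their log2 ratios of rods to retina in controls were 0.76, 0.95, 0.47 and 0.62 in that order. These correlations describe 12 libraries that fall into the same 2 fractions.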

How the data were processed

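Poly(A) RNA was sequenced in 12 libraries, 3 per group. The submitters' processing notes name CASAVA 1.8.2, HISAT2, DESeq2, edgeR and GRCm39; the counter, the annotation and the use of strand are not given in the sources used here. The deposited table holds a normalised signal per gene, which the authors made by dividing read counts by size factors within each fraction. Whole reads were recovered for 99.996% of values (tolerance 0.05). Separate animals behind replicates are not detailed, so p-values measure the spread between these libraries. Within a fraction, the test between genotypes was limma 3.58.1 on log2(value + 1), over genes with a mean of at least 1 in a group, and Benjamini-Hochberg adjusted p under 0.05. Fold changes are on that log2 scale and are understated for low genes. Rods and retina were compared on recovered reads after TMM scaling in a single fit of all 12 libraries. On the recovered reads edgeR 4.0.16 called 4 genes between genotypes in rods and 1 in retina, the same numbers as limma. DESeq2 1.42.0, other scalings, filters and pseudocounts, and leaving out each library were alternatives. Same-numbered rod and retina libraries of a genotype deviated together (r from 0.21 to 0.45 in 6 of 6 pairs). The main fit did not use this pairing and treated the 12 libraries as separate. Only an alternative fit with a replicate block took the numbers as pairs. Named genes were all 8 members, the 3 highest and 3 lowest listed spliceosome genes by control ratio, Rp1 and Pde6b, and genes among the 5 most similar profiles; some items that these rules name are not reported here. The members and lists were chosen with earlier results of these data known. Lengths came from GENCODE vM21 (GRCm38), and promoters from RefSeq; scripts were tested on simulated data.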

Additional observations from a re-analysis of the deposited data

How the results depend on the processing

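Between fractions, the call of 7 members higher and 0 lower was the same in each genotype under edgeR, DESeq2, another pseudocount, no filter, a minimum of 10 reads, size factors over all libraries, the 6 libraries of the genotype alone, the replicate block and without each library in turn. With total reads as the only scaling, control members were 4 higher and 1 lower and the listed spliceosome genes 33 higher and 10 lower; on deposited values the numbers were 2 and 1, and 31 and 11. In Pkm2 Rodko mice 5 members were higher and 1 was lower under each (Rp9, at -0.42 and -0.44). Of the listed genes 36 and 34 were higher and 8 lower in both. Deposited values put Prpf4 at -0.016 and Prpf8 at -0.016 in controls. Both settings moved the median of all genes, from -0.36 to -0.76 and -0.80 in controls.

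Leaving out a library moved the listed genes called lower between 2 and 4 in either genotype, and the control ratio of Rp9 between -0.18 and 0.11. Genotype differences near 0 changed sign without a library: in rods Prpf4 ran from -0.0016 to 0.12, Prpf6 from -0.069 to 0.14, Prpf8 from -0.089 to 0.20, Snrnp200 from -0.027 to 0.20 and Rp9 from -0.029 to 0.24. In retina Prpf4 ran from -0.017 to 0.076, Prpf6 from -0.065 to 0.018, Prpf8 from -0.045 to 0.13, Prpf31 from -0.023 to 0.031, Snrnp200 from -0.070 to 0.11 and Rp9 from -0.18 to 0.014. In a single fit of all 12 libraries Prpf4 in retina was at -0.00019. No member was called between genotypes in any of these fits, and for the reversals other than by scaling the cause was not tested.

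Genotype groups share replicate numbers only as labels (r from -0.25 to 0.08, and not every library correlated best with its own number), and with a replicate block 8 genes in place of 4 were called in rods and 0 in place of 1 in retina, with 0 members among them. For rods against retina the block, which pairs same-numbered libraries, changed no call of a member and gave 7 higher. The order of levels with principal transcript lengths, tried after seeing the data, kept 4 of 8 ranks in control rods and in control retina. With 111 to 269 reads, Rp9 is the least precise member.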
